A study of Mus musculus with 12 samples.

Results

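The response to azacitidine (AzaC) averaged over nTregs and CD4 effector T cells was measured on all 12 arrays of the study. For each of 22180 genes it is the mean of the drug's log2 difference in nTregs and its log2 difference in CD4 effector cells. A change carried mainly by 1 population can therefore stand out too. Calls were made with limma at an adjusted p under 0.05 (Benjamini-Hochberg, over the 22180 genes). A gene was counted in the common response if, in addition, the 3 AzaC arrays did not overlap the 3 PBS arrays in either population and lay on the same side of them in both. By these rules 822 genes were called and 541 of them formed the common response.

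The arrays came from mouse T cells in 4 groups of 3: nTregs with AzaC, nTregs with PBS, CD4 effector T cells with AzaC and CD4 effector T cells with PBS. Natural regulatory T cells (nTregs) from spleens of B6.Foxp3GFP mice, which carry a green reporter of the transcription factor Foxp3, were mixed at 1 part to 10 parts with Treg-depleted T cells of the cross of B6.Foxp3GFP with B6.CAGDSRED, whose cells are red under the ubiquitous CAG promoter. The strain label names that cross on all 12 arrays, for the nTregs too. All 4 groups shared 2 days of activation with anti-CD3/CD28 beads plus human interleukin-2 at 500 U/mL. AzaC at 1 µM or PBS was then given for 2 more days. The nTregs were sorted as CD4+, DsRed negative and Foxp3 reporter positive, and the effector cells, called CD4 cells here, as CD4+, DsRed positive and reporter negative. Both populations therefore met the drug in the same mixed culture, and a direct effect on a population cannot be told apart from an effect through the other cells of that culture. The labels give no age for the animals. They also do not say whether the arrays of a group stand for separate animals or cultures, so p-values measure only the spread between these samples.

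AzaC is an analogue of cytidine that cells build into RNA and, after reduction, into DNA. In DNA it traps the DNA methyltransferases on their target base, which is the C of the dinucleotide CG (CpG), so methylation is lost as cells divide and DNA damage signalling can follow. In T cells, methylation at CpG-rich control regions is known to help silence lineage genes, Foxp3 among them in cells that are not Tregs.

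AzaC changed few genes by a large amount in both populations. Of 22180 genes, 453 rose (2.04%) and 369 fell (1.66%) in the averaged effect, 3.71% in all, and 29 of the 822 changed at least 2-fold, 22 higher and 7 lower. The common response held 292 genes that rose (1.32%) and 249 that fell (1.12%), 2.44% in all, and 25 of them changed at least 2-fold, 20 higher and 5 lower. Whether called or not, 875 of the 22180 genes (3.94%) lacked overlap in both populations in the same direction. In opposite directions 603 genes (2.72%) did, so a lack of overlap by itself does not mark a shared change. The averaged effect lay within 0.2 of 0 on the log2 scale for 82.6% of genes, and its median over all genes was −0.01. The median SE was 0.09, against 0.13 for the effect in a single population. By comparison, nTregs and CD4 cells themselves differed in 2617 genes (11.8%) on the same arrays. Population accounted for 31.3% of the total variation over all genes, drug for 13.6% (1 degree of freedom each), and the dependence of drug on population for 11.5%, against 5.45% for each degree of freedom of the spread within groups.

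The count of calls depended on single arrays. It was 504 without nTreg AZA 2, 515 without nTreg AZA 3, 546 without CD4 AZA 3 and 1245 without nTreg PBS 1. That last array stood apart: it correlated with the others at a mean r of 0.972, whereas CD4 PBS 3 reached 0.979 and the other 10 arrays 0.983 to 0.987. Without it 588 genes rose and 657 fell, and 799 of the 822 genes were called again. Of the 822 genes, 432 (249 higher and 183 lower) were called again whichever array was left out, as were 348 of the 541 common genes, and 0 of the 822 changed direction.

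Plagl1, which encodes an imprinted zinc finger factor that restrains growth, and Il23r, the specific chain of the interleukin-23 receptor, led the rises together with Myl10, a myosin regulatory light chain. Fam183b, Scd1 and Clybl led the falls. Promoter sequence is shown for the top 2 genes in each direction that have an entry in RefSeq's promoter table (GRCm38.p6), since CpG is the dinucleotide at which the methyltransferases act. Each window runs from 250 bases before to 50 bases after the annotated start, 5′ to 3′ on the gene's strand, with every CpG in capitals. Il23r lies at chr6:67491806-67492105 on the minus strand, Plagl1 at chr10:13090582-13090881 on the plus strand, Fam183b at chr11:58801911-58802210 on the minus strand and Clybl at chr14:122181444-122181743 on the plus strand.
Il23r: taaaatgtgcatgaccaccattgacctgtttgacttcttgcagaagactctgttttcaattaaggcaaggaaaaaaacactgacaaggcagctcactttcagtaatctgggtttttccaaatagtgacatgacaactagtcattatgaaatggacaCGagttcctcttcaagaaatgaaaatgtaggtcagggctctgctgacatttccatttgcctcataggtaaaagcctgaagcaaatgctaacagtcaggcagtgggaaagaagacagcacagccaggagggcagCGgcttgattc
Plagl1: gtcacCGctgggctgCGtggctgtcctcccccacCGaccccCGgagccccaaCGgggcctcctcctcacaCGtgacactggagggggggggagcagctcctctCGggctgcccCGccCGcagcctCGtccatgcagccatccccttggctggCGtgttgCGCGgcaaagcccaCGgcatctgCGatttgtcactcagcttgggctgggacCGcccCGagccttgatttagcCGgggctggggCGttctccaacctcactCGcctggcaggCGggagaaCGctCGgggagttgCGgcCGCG
Fam183b: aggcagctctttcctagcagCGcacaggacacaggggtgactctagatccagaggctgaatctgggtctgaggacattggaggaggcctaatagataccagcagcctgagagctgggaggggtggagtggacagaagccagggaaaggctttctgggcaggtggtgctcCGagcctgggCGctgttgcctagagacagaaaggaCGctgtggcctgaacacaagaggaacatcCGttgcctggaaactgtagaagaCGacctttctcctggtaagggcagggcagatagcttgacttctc
Clybl: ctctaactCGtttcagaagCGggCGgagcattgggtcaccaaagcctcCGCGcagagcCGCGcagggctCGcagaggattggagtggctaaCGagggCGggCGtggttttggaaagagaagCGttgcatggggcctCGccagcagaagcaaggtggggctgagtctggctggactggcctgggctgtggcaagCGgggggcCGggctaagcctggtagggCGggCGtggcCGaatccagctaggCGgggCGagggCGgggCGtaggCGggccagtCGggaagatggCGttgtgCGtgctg
These windows hold 2 CpGs for Il23r and 26 for Plagl1, which rose, and 6 for Fam183b and 26 for Clybl, which fell. The median over the 27025 promoters of the table is 7, with quartiles of 3 and 21, so Plagl1 and Clybl lay above the upper quartile, Il23r below the lower one and Fam183b near the median. Methylation was not measured in these samples. Only 76.6% of the genes tested have an entry, so no comparison of promoters over the whole response was made.

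Il23r read 7.69, 7.04 and 7.05 on the log2 scale in nTregs with AzaC, against 5.34, 4.87 and 4.53 with PBS. In CD4 cells it read 5.00, 5.31 and 5.27 with AzaC, against 4.75, 4.56 and 4.79 with PBS. The groups did not overlap in either population, but the CD4 AzaC arrays lay within the range of the nTreg PBS arrays. Its mean signal was in the dimmest class of 4 equal classes of genes (up to 5.89), so the size of its change is not exact. The averaged rise was 1.42 (95% interval 1.12 to 1.72, 2.68-fold, adjusted p = 7.73e-05).

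Plagl1 showed the same shape. Its values were 8.90, 9.07 and 9.24 in nTregs with AzaC, against 6.73, 6.91 and 6.68 with PBS. They were 6.41, 6.13 and 6.23 in CD4 cells with AzaC, against 5.92, 5.89 and 5.84 with PBS. All AzaC arrays lay above the PBS arrays of their population, and the averaged rise was 1.34 (SE 0.08, adjusted p = 1.9e-06). The rise in nTregs exceeded that in CD4 cells for both genes: the difference between the populations' effects, called the interaction here, was 1.92 for Plagl1 (adjusted p = 0.000268) and 1.85 for Il23r (adjusted p = 0.0198). Their averages are therefore a poor guide to either population.

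For other leading rises the difference between the populations was smaller and not called. Arfgef3, a member of the Arf guanine nucleotide exchange factor family, read 8.96, 9.17 and 9.18 in nTregs with AzaC, against 7.86, 7.78 and 7.91 with PBS. In CD4 cells Arfgef3 read 7.83, 8.08 and 7.88 with AzaC, against 6.82, 6.64 and 6.65 with PBS. It rose by 1.24 on average (2.36-fold), by 1.25 in nTregs and 1.23 in CD4 cells, and the 95% interval of the interaction ran from −0.30 to 0.35. Myl10 rose by 1.30 (interval of the interaction −0.74 to 0.22) and Noct, the clock-linked phosphatase nocturnin, by 1.11 (−0.54 to 0.17). Sema7a, a membrane-anchored semaphorin of lymphocytes, rose by 1.29, by 1.50 in nTregs and 1.09 in CD4 cells (interval of the interaction −0.02 to 0.83).

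The remaining genes of the 12 largest common rises included growth and cell cycle genes. Cdk6, the G1 cyclin-dependent kinase of lymphocytes, read 10.76, 10.91 and 10.78 in nTregs with AzaC, against 9.61, 9.92 and 10.08 with PBS. Its values in CD4 cells were 10.60, 10.63 and 10.40 with AzaC, against 9.24, 9.03 and 9.23 with PBS, again without overlap (averaged rise 1.16, 2.24-fold, adjusted p = 7.9e-06). Odc1, the rate-limiting enzyme of polyamine synthesis, rose by 1.17 and Ptpn14, a tyrosine phosphatase, by 1.20. Tmem176b, a membrane protein of myeloid cells and some T cells, rose by 1.25, Ly6g5b by 1.26 and Cdkn1a, the cell cycle inhibitor p21, by 1.14. The interaction was called for Ly6g5b (1.31, larger in nTregs) and Cdkn1a (−1.62, larger in CD4 cells).

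**Figure D1:**
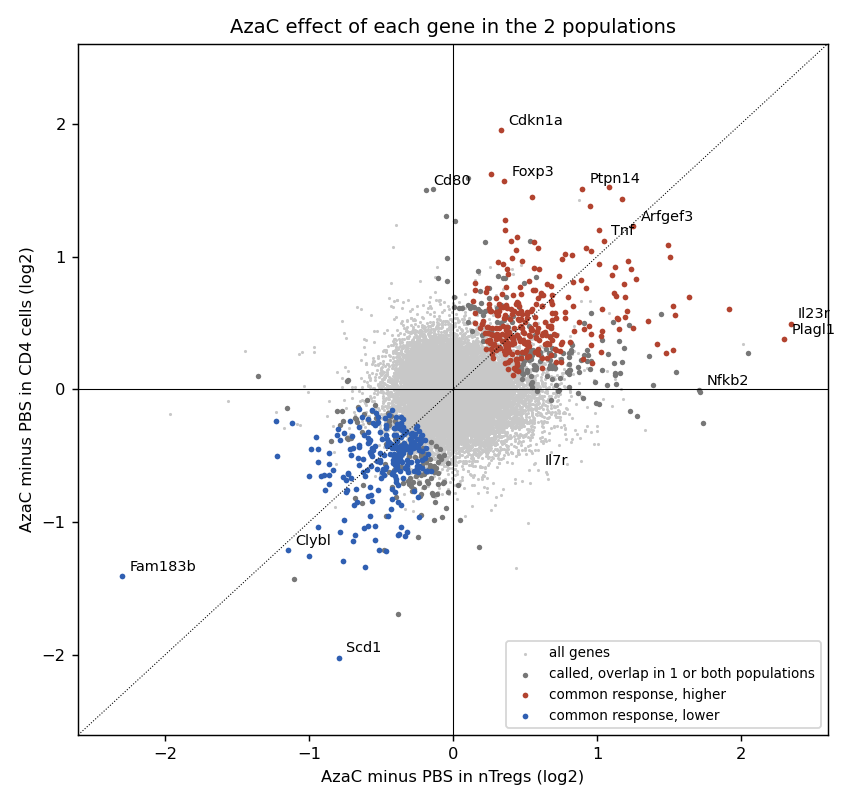
Each point is 1 of 22180 genes, with the AzaC minus PBS difference (log2) in nTregs on the horizontal axis and in CD4 cells on the vertical axis; red and blue points are the 292 higher and 249 lower genes of the common response, dark grey points are called genes whose groups overlap in at least 1 population, and the dotted line marks equal effects. Arfgef3 and Clybl lie near the line, Il23r and Plagl1 far to the nTreg side, Cdkn1a and Scd1 to the CD4 side, and most genes form a round cloud at 0.

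Fam183b fell most. It read 8.16, 8.36 and 8.35 in nTregs with AzaC, against 11.09, 10.31 and 10.36 with PBS. Its CD4 values were 5.75, 6.45 and 5.98 with AzaC, against 7.27, 7.32 and 7.81 with PBS. There was no overlap, and the averaged effect was −1.85 (95% interval −2.18 to −1.52, to 0.277 of the PBS level).

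Lipid and mitochondrial enzymes followed. Scd1, the desaturase that makes monounsaturated fatty acids, read 8.47, 8.0 and 8.34 in nTregs with AzaC, against 9.20, 9.0 and 8.99 with PBS. It read 7.82, 8.15 and 7.83 in CD4 cells with AzaC, against 9.91, 9.97 and 9.97 with PBS. The PBS arrays were highest in CD4 cells and the AzaC arrays of the populations overlapped. Its averaged effect was −1.41, with a larger fall in CD4 cells (interaction 1.22, adjusted p = 0.0198). Clybl, a mitochondrial lyase, fell by similar amounts in both: 9.84, 10.18 and 10.16 in nTregs with AzaC against 11.25, 11.06 and 11.31 with PBS, and 9.62, 10.01 and 10.03 in CD4 cells with AzaC against 11.13, 11.04 and 11.13 with PBS. Its averaged effect was −1.18 (adjusted p = 1.1e-05) and the interval of its interaction ran from −0.34 to 0.47. Pmvk, the phosphomevalonate kinase of cholesterol synthesis, fell by 0.89 on the log2 scale without overlap in either population (adjusted p = 1.34e-05).

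The other large common falls were Adam6b, a sperm ADAM family gene (−1.13), Cnga1, a channel subunit of rod photoreceptors (−1.03), Serpini1, the protease inhibitor neuroserpin (−0.99), and the zinc finger gene Zfp772 (−0.97, with a mean signal of 5.61 in the dimmest class). They also included Nrbp2, a pseudokinase (−0.92), Emc9, of the membrane protein insertion complex of the endoplasmic reticulum (−0.87), and Trappc6a, of a vesicle tethering complex (−0.86). H2-Ab1, the beta chain of the class II MHC molecule I-A, read 10.83, 10.84 and 10.82 in nTregs with AzaC, against 11.60, 11.49 and 11.74 with PBS. In CD4 cells H2-Ab1 read 9.12, 9.98 and 10.07 with AzaC, against 10.75, 10.70 and 10.94 with PBS. Its groups did not overlap, and it fell by 0.93 on the log2 scale (adjusted p = 0.00126). Zfp772 was the only 1 of these 24 genes whose call was lost without some array: its adjusted p was 0.0336, and between 0.0515 and 0.0938 without CD4 AZA 1, CD4 AZA 3, nTreg PBS 2, nTreg AZA 1, nTreg AZA 2 or nTreg AZA 3.

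**Figure D2:**
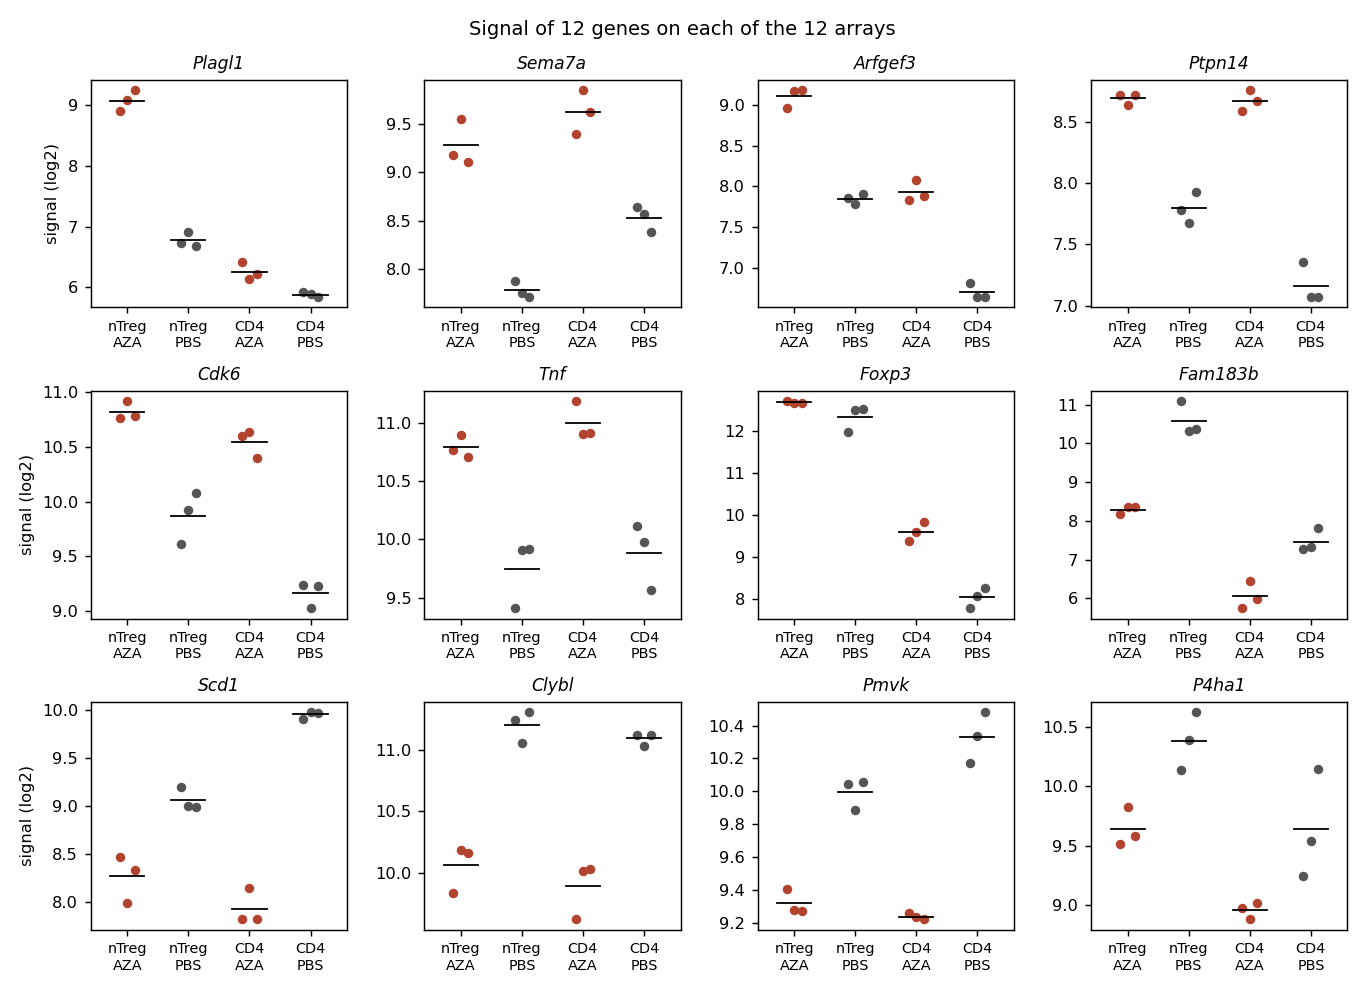
Signal (log2) of 12 genes on each array, with a dot per array and a bar at the mean of 3; red dots are AzaC arrays and grey dots PBS arrays, and each panel has its own vertical scale. In all 12 panels the AzaC and PBS dots of a population do not overlap, and the gap is similar in both populations for Arfgef3, Tnf, Clybl and P4ha1, but not for Plagl1, Foxp3 or Scd1.

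Averaging brought out genes with moderate changes of similar size in both populations. Tested alone, nTregs gave 448 calls (2.02% of genes) and CD4 cells 391 (1.76%). Of the 822 genes, 86 were called in both populations, 233 in nTregs only, 222 in CD4 cells only and 281 in neither (136 higher and 145 lower), and 208 of these 281 belonged to the common response. Cdca7, a chromatin factor that works with the remodeller Hells in keeping DNA methylated, is an example. It read 9.06, 9.26 and 8.96 in nTregs with AzaC, against 8.45, 8.56 and 8.21 with PBS. The CD4 arrays read 8.68, 9.30 and 8.90 with AzaC, against 8.57, 8.29 and 8.09 with PBS. The groups were close but did not overlap, and the averaged rise of 0.67 passed (adjusted p = 0.00499) where the rises of 0.69 in nTregs (adjusted p = 0.0506) and 0.65 in CD4 cells (adjusted p = 0.0702) did not.

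P4ha1, a subunit of the collagen prolyl hydroxylase that hypoxia induces, read 9.51, 9.82 and 9.58 in nTregs with AzaC, against 10.14, 10.39 and 10.62 with PBS. Its values in CD4 cells were 8.98, 8.88 and 9.01 with AzaC, against 9.24, 9.54 and 10.14 with PBS. All AzaC arrays lay below the PBS arrays of their population, and the averaged effect was −0.71 (adjusted p = 0.0077). The mitochondrial protein gene Mgarp (−0.71) and Itm2a, a membrane protein of activated T cells (−0.63), fell in the same way. ND6, the complex I subunit encoded on the light strand of mitochondrial DNA, fell by 0.75, and its adjusted p of 0.0162 became 0.0523 without CD4 AZA 3 and 0.0515 without nTreg AZA 2. Of the 10 mitochondrially encoded RNAs measured, ND6 alone was called.

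Among the rises of this kind, Csta2, a cysteine protease inhibitor, reached 0.98 (adjusted p = 0.0112), at a mean signal in the dimmest class (5.08), so its size is not exact. Cndp2, a dipeptidase (0.87), and Mov10, an RNA helicase that restrains retroelements (0.74), owed part of their size to the array that stood apart. Cndp2 read 9.02 on nTreg PBS 1 but 10.54 and 10.61 on the other nTreg PBS arrays, and Mov10 read 9.06 there but 10.45 and 10.41. Both calls were lost without each of the CD4 PBS, CD4 AZA and nTreg AZA arrays in turn (adjusted p of 0.0597 to 0.0848 for Cndp2 and 0.0709 to 0.111 for Mov10). The calls of Zc3h12c (0.69) and Sh3yl1 (−0.61) were lost without 8 and 10 of the 12 arrays. Cstdc4 (0.67, lost without CD4 PBS 1 or nTreg AZA 2) had a mean signal of 3.51, below the fifth percentile of genes on every array (3.94 to 4.19), so its size is not exact.

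**Figure D3:**
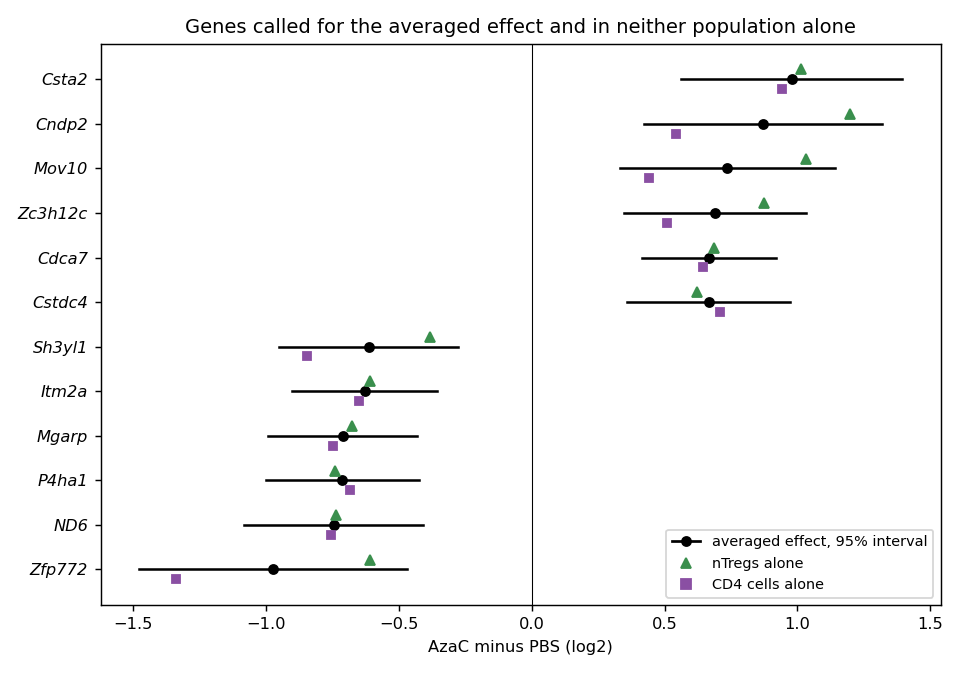
The 12 genes named among those called for the averaged effect but in neither population alone, with the averaged AzaC minus PBS difference (log2) as a dot with its 95% interval, the effect in nTregs as a triangle and the effect in CD4 cells as a square. Csta2, Cdca7, Itm2a, Mgarp, P4ha1 and ND6 have nearly equal effects in both populations, while those of Cndp2, Mov10 and Zfp772 lie farther apart.

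For most of the common response no difference between the populations was called. The interaction was called for 45 of all genes (0.203%), for 27 of the 822 and for 10 of the 541. For 485 of the 541 genes its 95% interval lay within 1 of 0 on the log2 scale, with a median half-width of 0.37. These intervals are not adjusted over genes and the call is stricter: a difference as large as that of Foxp3 (−1.21, adjusted p = 0.0517) was not called, so a missing call does not show equal effects. Over all 22180 genes the effects in nTregs and CD4 cells had the same sign in 44.9% and a correlation across genes of r = 0.08 (Spearman −0.04), and the 2 effects share no array. Array medians over these genes moved in opposite directions. They were 6.94 to 6.95 with AzaC and 6.97 to 7.03 with PBS in nTregs. In CD4 cells they were 6.95 to 7.01 with AzaC and 6.86 to 6.94 with PBS. The part of this offset in the share of equal signs was not tested.

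Tumour necrosis factor and its relatives rose in both populations. Of 15 TNF superfamily ligands measured, 5 rose and 0 fell (33.3%, against 3.71% of all genes), all 5 in the common response. Their count was 5 or 6 without any single array, and the list's median was 0.36, against −0.01 for all genes. Tnf, the inflammatory cytokine itself, read 10.77, 10.90 and 10.71 in nTregs with AzaC, against 9.41, 9.91 and 9.92 with PBS. In CD4 cells it read 11.19, 10.91 and 10.92 with AzaC, against 10.12, 9.97 and 9.56 with PBS. Every AzaC array exceeded every PBS array of either population, and Tnf rose 2.12-fold (1.08, adjusted p = 0.00013; interval of the interaction −0.57 to 0.42). Lymphotoxin alpha (Lta) rose by 0.73, the CD30 ligand Tnfsf8 by 0.83, and the other risers were Tnfsf4 (1.00) and Fasl (0.68). Of 22 TNF receptors, 3 rose, among them the TRAIL receptor Tnfrsf10b (0.74), and 2 fell, among them Cd27 (−0.38, adjusted p = 0.0528 without nTreg AZA 2).

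Some NF-kB genes rose in the average, nearly all without being common. Of 26 subunits and regulators, 8 rose and 0 fell (30.8%), led by the precursor gene Nfkb2 (0.85), Relb (0.69) and the inhibitor Nfkbie (0.53), but only Nfkbia was in the common response, and its call was lost without 11 of the 12 arrays. In an additive fit of population and drug, whose residual takes in the interaction, 1 of the 26 rose, and Nfkb2 (adjusted p = 0.106), Nfkbie (0.207) and Nfkbia (0.0972) were not called. Nfkb2 read 10.77, 10.94 and 10.68 in nTregs with AzaC, against 8.52, 9.27 and 9.48 with PBS. Its CD4 values were 9.49, 9.32 and 9.06 with AzaC, against 9.25, 9.41 and 9.22 with PBS, which overlap. The interaction was called for 3 of the 26, including Nfkb2 (1.71, adjusted p = 0.0253) and Nfkbie (1.39, adjusted p = 0.00194). The 8 rises became 4 without CD4 PBS 2, any of the CD4 AZA arrays, nTreg AZA 2 or nTreg AZA 3, and 5 without nTreg PBS 3 or nTreg AZA 1.

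Several targets of p53, the transcription factor of the DNA damage response, rose in the average. Of 32 measured, 12 rose and 0 fell (37.5%), 7 of them in the common response, with a median of 0.31. Cdkn1a read 12.22, 12.07 and 12.17 in nTregs with AzaC, against 11.58, 11.94 and 11.95 with PBS. Its CD4 values were 11.82, 11.64 and 11.72 with AzaC, against 9.67, 9.79 and 9.87 with PBS. The nTreg groups were adjacent, whereas the CD4 groups lay far apart. Ptpn14 (1.20), Cdkn1a (1.14) and Tnfrsf10b (0.74) led the list. The effect in nTregs passed for 1 of the 32 genes and that in CD4 cells for 12, the medians were 0.15 in nTregs and 0.36 in CD4 cells, and the interaction was called for Cdkn1a and Cd80 (−1.69). The count was 10 to 12 without any single array and 8 in the additive fit.

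The calls among genes of DNA replication were rises and those among genes of mitosis were falls, though most genes of both lists did not pass. Of 39 G1/S and replication genes, 10 rose and 0 fell (25.6%), 9 of them common, including the helicase subunit Mcm2 (0.63) and thymidine kinase Tk1 (0.55) beside Cdk6. Mcm2 read 10.11, 10.22 and 10.13 in nTregs with AzaC, against 9.19, 9.61 and 9.60 with PBS, and 10.35, 10.52 and 10.22 in CD4 cells with AzaC, against 9.69, 9.72 and 9.95 with PBS. Of 33 G2/M genes, 7 fell and 0 rose (21.2%), 6 of them common, with a list median of −0.23. Cdc25c, the phosphatase that starts mitosis, read 7.30, 7.30 and 7.29 in nTregs with AzaC, against 7.64, 7.61 and 7.94 with PBS, and 7.94, 7.98 and 8.12 in CD4 cells with AzaC, against 8.34, 8.52 and 8.63 with PBS. The shifts of Mcm2 and Cdc25c were moderate but without overlap, and they pointed in opposite directions. Cdc25c fell by 0.46 on the log2 scale, the centromeric histone gene Cenpa by 0.41 and the checkpoint kinase gene Bub1 by 0.39.

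Both cell cycle counts leaned on single arrays. The 10 G1/S rises became 6 without CD4 PBS 2, nTreg AZA 1 or nTreg AZA 3. The 7 G2/M falls became 13 without nTreg PBS 1, and 4 without nTreg PBS 2, nTreg AZA 2, nTreg AZA 3, CD4 AZA 1, CD4 AZA 3 or any of the CD4 PBS arrays. The proliferation marker Mki67 averaged −0.03 (95% interval −0.19 to 0.14, adjusted p = 0.915).

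Of 29 genes, ribosome biogenesis genes and Myc, 9 rose, 1 fell and 19 did not pass (34.5%), and 9 of the 10 called were common. The 9 rises became 6 without CD4 PBS 2, CD4 AZA 2, nTreg AZA 1 or nTreg AZA 2. Utp20 and Heatr1, of the complex that processes the small subunit's RNA, rose by 0.57 and 0.46. Utp20 read 7.94, 7.90 and 7.88 in nTregs with AzaC, against 7.10, 7.25 and 7.33 with PBS. The CD4 arrays read 8.0, 8.06 and 7.95 with AzaC, against 7.63, 7.35 and 7.64 with PBS. The AzaC arrays of both populations agreed closely and lay above all PBS arrays. Wdr12, a large subunit assembly factor, went against its list, at 9.66, 9.39 and 9.67 in nTregs with AzaC against 10.08, 10.22 and 10.21 with PBS, and fell by 0.60 on the log2 scale (−0.60 in nTregs, −0.61 in CD4 cells, adjusted p = 0.000397).

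Precursor supply showed a few changes. Cad, the enzyme that starts pyrimidine synthesis, read 9.52, 9.82 and 9.70 in nTregs with AzaC, against 7.77, 8.94 and 8.96 with PBS. In CD4 cells it read 9.38, 9.75 and 9.67 with AzaC, against 8.36, 8.85 and 8.83 with PBS. Cad rose by 1.02 (adjusted p = 0.0049), and nTreg PBS 1 and CD4 PBS 1 were the lowest arrays of their groups. It was 1 of 4 genes that rose, with 0 that fell, among 27 of pyrimidine metabolism and AzaC uptake (14.8%), beside Dctd (0.46), Ctps (0.47) and Umps (0.31, lost without 9 of the 12 arrays). Of 15 genes of polyamine metabolism 3 rose and 1 fell (26.7%), and of 19 amino acid transporters 2 rose, Slc7a5 (0.75) and Slc7a1 (0.42).

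Some genes of the hypoxia response fell. Of 20 measured, 9 fell and 1 rose (50%), 7 of them common, with a median of −0.41. The prolyl hydroxylases P4ha2 and P4ha1 fell by 0.84 and 0.71 on the log2 scale. Egln1, the oxygen sensor that marks hypoxia-inducible factors for decay, read 8.91, 9.11 and 9.01 in nTregs with AzaC, against 9.66, 9.34 and 9.62 with PBS. It read 8.43, 8.86 and 8.95 in CD4 cells with AzaC, against 9.17, 9.24 and 9.45 with PBS. Egln1 changed by −0.53 and −0.54 in nTregs and CD4 cells and was called only in the average (adjusted p = 0.00794). The 9 falls became 5 without CD4 PBS 3 or CD4 AZA 1, and 3 in a fit without moderation. Among 18 glycolytic genes 2 fell, Aldoc (−1.03) and Pgk1 (−0.51), and 5 fell without nTreg PBS 1, and among 31 nuclear genes of oxidative phosphorylation limma called 0 for the averaged effect.

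Some cholesterol synthesis genes fell in the average, with more calls in CD4 cells than in nTregs. Of 19 genes 8 fell and 0 rose (42.1%), but 4 were common, Pmvk, Fdps, Sqle and Tm7sf2 (the last lost without 10 of the 12 arrays). Fdps, farnesyl diphosphate synthase, read 10.90, 10.73 and 10.94 in nTregs with AzaC, against 11.18, 11.16 and 11.31 with PBS. Its CD4 values were 10.67, 10.85 and 10.69 with AzaC, against 11.85, 11.73 and 11.74 with PBS. The groups were separate in both, with the wider gap in CD4 cells (averaged −0.70; interaction 0.68, adjusted p = 0.0783). The list's median was −0.07 in nTregs and −0.59 in CD4 cells, with 1 and 9 genes called, and the interaction was called for 0 of the 19. The 8 falls became 13 without nTreg PBS 1, 3 without CD4 AZA 1, and 4 or 5 without any other array except CD4 AZA 2. In the additive fit they were 4. Of 15 fatty acid synthesis genes 3 fell, with Scd1 at their head, and 1 rose.

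**Figure D4:**
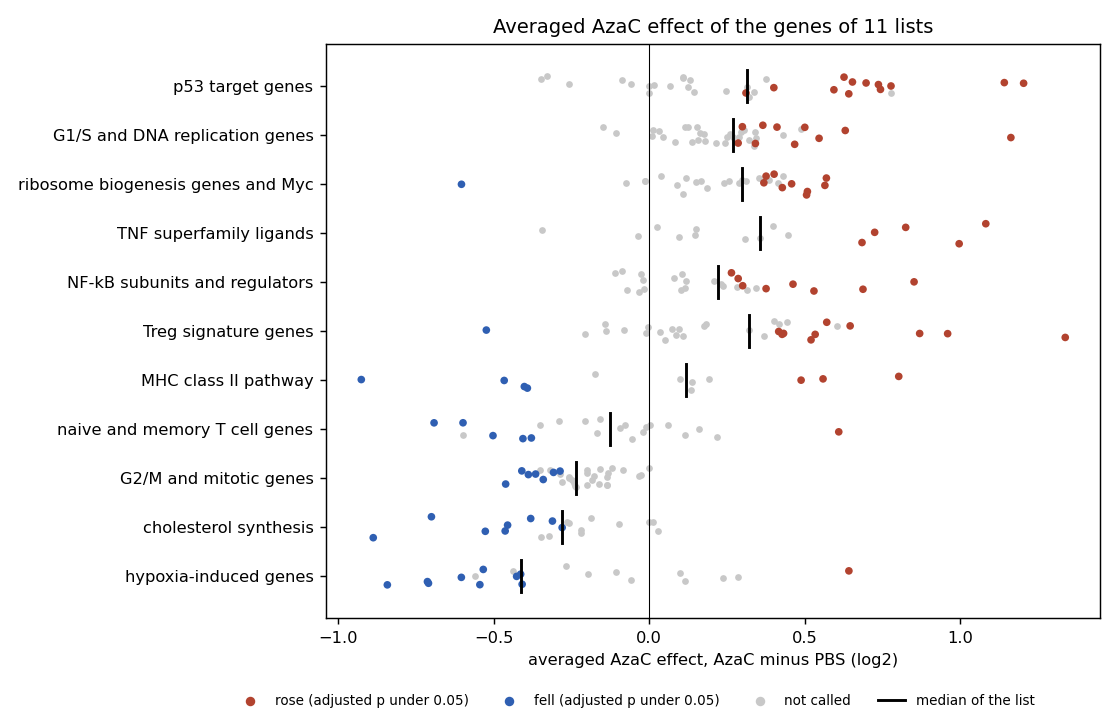
Averaged AzaC minus PBS difference (log2) of each measured gene of 11 lists, with genes that rose in red, genes that fell in blue, genes not called in grey and the median of each list as a black bar; the scatter within a line has no meaning. The called p53, G1/S, TNF and NF-kB genes all lie above 0, the called G2/M and cholesterol genes all below 0, and the MHC class II genes on both sides.

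Some Treg genes rose in the average, their master regulator Foxp3 among them. Of 31 Treg signature genes, 10 rose and 1 fell (35.5%), 7 of them common, with a median of 0.32. The 10 rises became 7 without nTreg AZA 2 or nTreg AZA 3, and 13 without nTreg PBS 1. Foxp3 read 12.72, 12.68 and 12.68 in nTregs with AzaC, against 11.98, 12.52 and 12.52 with PBS. The CD4 arrays read 9.39, 9.61 and 9.85 with AzaC, against 7.79, 8.09 and 8.26 with PBS. The CD4 arrays stayed below all nTreg arrays, and the averaged rise was 0.96 (adjusted p = 0.000329; interaction −1.21, adjusted p = 0.0517). The lowest nTreg value, 11.98, came from nTreg PBS 1, the array that stood apart, so the gap in nTregs leans on that array. With each array left out in turn the averaged rise was 0.87 to 1.02. In bulk samples fewer cells of a type and less RNA per cell cannot be told apart, which touches the Foxp3 signal of the cells sorted as reporter negative.

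Ikzf4, a partner of Foxp3, rose too: 10.03, 9.97 and 9.92 in nTregs with AzaC against 8.87, 9.33 and 9.44 with PBS, and 9.11, 8.84 and 8.98 in CD4 cells with AzaC against 8.18, 8.02 and 7.79 with PBS (averaged 0.87, adjusted p = 0.000269; interval of the interaction −0.66 to 0.22). Itgae, the integrin CD103, rose by 0.65 and Il2ra, the high-affinity interleukin-2 receptor chain, by 0.43. Tigit, an inhibitory receptor and the 1 fall, was at −0.52, a call that was lost without 9 of the 12 arrays (adjusted p up to 0.0890). Ikzf2 (0.18, 95% interval −0.01 to 0.37) and Ctla4 (−0.01, −0.18 to 0.16) did not pass.

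A few effector genes rose and a few genes of resting T cells fell. Of 35 cytokines and chemokines 4 rose (11.4%), all common: the chemokines Xcl1 (0.84) and Cxcl10 (0.66), Lif (0.75) and Il4 (0.52). Of 20 cytotoxic effectors 5 rose (25%, and 8 rose without nTreg PBS 1), including granzyme B (Gzmb, 0.57) and the granule protein Nkg7, which read 11.89, 11.63 and 11.93 in nTregs with AzaC, against 11.53, 11.06 and 11.14 with PBS. In CD4 cells Nkg7 read 11.83, 11.99 and 12.01 with AzaC, against 11.30, 11.20 and 11.09 with PBS, so that it rose by 0.66 without overlap. Among 22 genes of naive and memory cells 5 fell and 1 rose (27.3%). Ly6c1 (−0.69), the transcription factor Klf3 (−0.60) and Slamf6 (−0.41) were among the falls, which numbered 8 without nTreg PBS 1 and 3 without nTreg AZA 2. The 1 rise was Ly6c2, a relative of Ly6c1, and its call was kept whichever array was left out. The highest averaged effect of this list was 0.61. Of 22 costimulatory and inhibitory genes 6 rose and 2 fell (36.4%), with 4 rises without nTreg AZA 2 or nTreg AZA 3, 4 falls without nTreg PBS 1 and 1 fall without any other array except CD4 PBS 2 and CD4 AZA 3. Among the rises were Cd80 (0.65, not called in the additive fit), Icosl (0.70) and Cd274, the ligand PD-L1 (0.63). The Cd80 effect differed between the populations, at −0.19 in nTregs and 1.50 in CD4 cells (interaction −1.69).

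Class II MHC genes split. Of 12 genes of the pathway 3 rose and 4 fell (58.3%). H2-Aa rose by 0.80 and H2-Eb1 by 0.56, while H2-Ab1, whose product pairs with that of H2-Aa, fell by 0.93 on the log2 scale. H2-Aa read 7.44, 7.06 and 7.42 in nTregs with AzaC, against 5.98, 6.14 and 5.73 with PBS, and 6.31, 6.22 and 5.93 in CD4 cells with AzaC, against 6.04, 6.03 and 5.64 with PBS. Its groups overlapped in CD4 cells. The PBS arrays of both populations read H2-Aa below the median gene of every array (6.86 to 7.03), so the size of its change is not exact. The 4 falls became 2 without CD4 PBS 1, CD4 PBS 3, any CD4 AZA array, nTreg PBS 3, nTreg AZA 1 or nTreg AZA 3.

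Among interferon-stimulated genes and genes linked to the drug's action most did not pass. Of 38 interferon-stimulated genes 4 rose and 1 fell (13.2%, against 3.71% of all genes), and all 5 were in the common response. In the brightest of 4 equal classes of genes 7.61% were called, and this list's median level was 8.86, against 6.96 for all genes. Phf11b, the fall, changed by −0.48 in nTregs and −0.49 in CD4 cells. Of 39 genes known to be silenced by DNA methylation, mainly germline genes, 3 rose (7.69%): Xist, the RNA of X inactivation and no germline gene (0.49), Taf9b (0.47) and Hsf2bp (0.37). That count was 1 without CD4 PBS 1, CD4 AZA 2, nTreg PBS 3, nTreg AZA 2 or nTreg AZA 3. Plagl1 was the only 1 of 34 imprinted genes called (2.94%). In the DNA methylation machinery, Hells rose (0.38) as 1 of 18 genes (5.56%). Hells was not in the common response (interval of the interaction −0.81 to −0.19, larger in CD4 cells). The additive fit did not call it (adjusted p = 0.0552). Dnmt1 (0.28, adjusted p = 0.331), Dnmt3a (0.20, 95% interval 0.05 to 0.34) and Dnmt3b (0.19, −0.04 to 0.42) did not pass. Uhrf1, which brings Dnmt1 to newly copied DNA, was at 0.42 (0.14 to 0.70, adjusted p = 0.11) and passed without nTreg PBS 2 (0.51, adjusted p = 0.0393).

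Few of the stress and death genes that rose were common. Of 28 genes of the integrated stress and unfolded protein response 5 rose and 1 fell (21.4%), with 1 common, Xbp1, the transcription factor of the unfolded protein response (0.85, 1.25 in nTregs and 0.46 in CD4 cells). Of 29 apoptosis regulators 5 rose (17.2%), which became 1 without CD4 PBS 2, CD4 AZA 2, nTreg AZA 2 or nTreg AZA 3, 2 without CD4 AZA 1 or CD4 AZA 3, and 3 without CD4 PBS 3, nTreg PBS 3 or nTreg AZA 1. Of 33 DNA repair and checkpoint genes 2 rose (6.06%), Exo1 (0.31) and Atm (0.27), and both calls were lost without most single arrays.

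Markers of other cells were read beside these groups. The mean level of 12 B cell markers was 6.17 to 6.23 in nTregs with AzaC and 6.13 to 6.25 with PBS, and 6.03 to 6.22 in CD4 cells with AzaC and 6.01 to 6.09 with PBS. That is below the median gene of every array (6.86 to 7.03), and 0 of the 12 were called, as were 0 of 12 NK and gamma-delta T cell markers and 0 of 5 erythroid and platelet markers (all by limma). Of 22 myeloid and dendritic cell markers Itgam fell, and Zbtb46 was called higher (0.32), a call lost without 10 of the 12 arrays (adjusted p up to 0.117). The mean level of these 22 markers was lower with AzaC in nTregs, without overlap: at most 6.25 with AzaC and at least 6.33 with PBS. A positive effect in nTregs was seen for 4 of the 22 and for 9298 of all 22180 genes. It was seen for 0 of 5 erythroid and platelet, 5 of 12 B cell and 6 of 12 NK and gamma-delta T cell markers. Of all genes, 24.5% lacked overlap in nTregs. In CD4 cells the AzaC range of the mean of the 22 markers, 6.18 to 6.35, spanned the PBS range. The cause of the lower mean in nTregs was not tested. The 10 T cell markers averaged 11.88 to 11.90 in nTregs with AzaC and 11.61 to 11.97 with PBS, and 11.69 to 11.80 in CD4 cells with AzaC and 12.03 to 12.05 with PBS. Of these, Trat1, a T cell receptor adaptor, was the only fall called (−0.47).

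The mean of Cd8a and Cd8b1, which mark CD8 T cells, moved with the cytotoxic genes in nTregs, at 9.62 to 9.75 with AzaC and 8.35 to 8.96 with PBS, but not in CD4 cells, at 8.11 to 8.54 with AzaC and 8.46 to 8.55 with PBS. Cd8a rose in the average (0.71, adjusted p = 0.00855) with 1.39 in nTregs and 0.03 in CD4 cells, a call that the additive fit (adjusted p = 0.113) and a fit without moderation (0.0721) did not make. The nTregs were sorted as CD4+, and the part of CD8 T cells in the rise of the cytotoxic genes was not tested.

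The average also hid genes. A call in 1 population or both was not matched by a call in the average for 210 genes. Il7r, the interleukin-7 receptor, read 11.20, 11.13 and 11.10 in nTregs with AzaC, against 10.57, 10.46 and 10.64 with PBS. In CD4 cells it read 10.53, 10.66 and 10.64 with AzaC, against 11.22, 11.19 and 11.24 with PBS. The groups were apart in both populations in opposite directions, which left an average of −0.01 (95% interval −0.15 to 0.13) and an interaction of 1.20 (adjusted p = 0.00194).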

How the data were processed

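Log2 values were deposited by the authors. Per the submitters' processing notes they come from RMA, run in Affymetrix Expression Console (versions not given). RMA includes background correction and quantile normalization, so a change shared by most genes would be removed. RNA was biotin-labelled with the WT Pico kit, per the labels' protocols. The table has 41345 rows, and array medians were 6.67 to 6.80. Rows with exactly 1 symbol in the platform annotation (23521) were kept, and the brightest row of each gene gave 22180 genes. 16010 rows without a name and 1814 with several were left out. No dim filter was applied.

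All 12 arrays entered 1 linear model with a mean for each group (limma 3.58.1, statmod 1.5.0, under R 4.3.3), leaving 8 residual and 5.95 prior degrees of freedom. The averaged effect, both single effects and the interaction are contrasts of that fit, and adjusted p-values are Benjamini-Hochberg over all genes. Checked on simulated data for the averaged effect, the fit recovered 61% of changes of 0.5 and 100% of changes of 1 (200 of 22180 genes changed), with 8 false calls. The simulated noise was normal and independent, with the same spread on all arrays for a gene, and effects were equal in both populations. No simulated array stood apart, so these rates need not hold for the real arrays.

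Genes were named by rule: the 12 largest rises and falls of the common response, 6 each among genes called in neither population, up to 3 per list by p, 4 each with the largest called interaction, and 17 named in advance. Predicted models, small RNAs, receptor segments and histones were passed over (36 common genes). Other list members were named after their values were seen, to complete a count. The members, lists and tests were chosen with earlier results of these data known, and some p53, hypoxia and TNF genes had already been seen to change, so list counts are no independent evidence. Some genes stand in several lists.

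Deviations of same-numbered arrays correlated weakly (−0.10 to 0.19, median 0.03, over 18 pairs), and the fit used no pairing. Between nTregs and CD4 cells with PBS, same-numbered arrays correlated at 0.021 to 0.040 and other-numbered ones at −0.041 to 0.012. With AzaC these ranges were 0.027 to 0.092 and −0.054 to 0.024. Correlations this small cannot settle whether the numbers pair samples. Alternatives covered dim genes, scaling, row choice, blocks, weights, moderation, fold size and each array left out. Promoters and mature microRNAs are RefSeq's (GRCm38.p6).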

Additional observations from a re-analysis of the deposited data

Results flagged for a closer look

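For 15 of the named genes the test of the difference itself (limma's interaction, nTregs minus CD4 cells) passed, so the averaged effect describes neither population well. Larger values in nTregs were found for Atp8b4, a phospholipid-transporting ATPase (1.99), Plagl1 (1.92), Il23r (1.85), Csn2, the milk protein beta-casein (1.77, at a dim mean signal of 5.16), and Dusp4, a MAP kinase phosphatase (1.74). The same direction held for Nfkb2 (1.71), Nfkbie (1.39), Ly6g5b (1.31) and Il7r (1.20). Epas1, a hypoxia-inducible factor (1.37), Scd1 (1.22) and the transporter gene Slc16a5 (1.03) also had positive differences, with lower values in CD4 cells (effects in nTregs and CD4 cells of 0.18 and −1.19 for Epas1, −0.79 and −2.02 for Scd1, 0.05 and −0.98 for Slc16a5). Negative differences were found for Cd80 (−1.69), Cdkn1a (−1.62) and Muc3a, a mucin gene (−1.45).

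Rows outside the gene analysis carried signal too. Of 16010 rows without a gene name, 108 were called for the averaged effect in a fit over every row (0.675%), 61 higher and 47 lower, and what they measure was not analysed here.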

How the results depend on the processing

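With 3 arrays per group, the number of arrays limits precision: the median SE of the averaged effect was 0.09. The 822 calls became 1811 with array weights, 502 without moderation and 29 at a size of at least 1. In the same order the rises became 901, 282 and 22, and the falls 910, 220 and 7. The common response was 25 at that size. Without nTreg PBS 1 and CD4 PBS 3 together, a setting chosen after seeing the data, there were 1213 calls, 629 of them falls, 940 common genes, 430 genes called in neither population, 678 calls in CD4 cells and 77 interactions. With array weights nTregs, CD4 cells and the interaction had 1290, 1291 and 401 calls, without moderation 238, 218 and 6, and with every row tested 219, 255 and 13. The interaction gave 80 calls after a filter on dim genes and 89 with arrays centred on their medians.

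Leaving out each array in turn gave 504 to 1245 calls, 285 to 588 rises, 219 to 657 falls, 395 to 891 common genes and 190 to 366 called in neither population. The ranges were 186 to 447 in nTregs, 164 to 1044 in CD4 cells, 9 to 69 for the interaction and 2069 to 3020 for the population difference. With the replicate block, 811 genes were called (456 higher, 355 lower), 740 of them among the 822. With a block within each population the population difference had 617 calls. Other planned settings gave 574 calls over every row, 597 in the additive fit and 688 with a block within each population. Centring, repeated quantile normalization, a dim filter, row means and a variance trend left the averaged count between 743 and 981. The causes were not tested.

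Of 123 named genes that were called, 98 kept the call without each array. The additive fit lost 21 of the 123, among them Nfkb2, Nfkbie, Cd80, Cd8a, Dusp4, Epas1 and Atp8b4, and the fit without moderation lost 37. The additive fit made 4 G2/M falls, 3 costimulatory rises, 3 cytotoxic rises and 3 apoptosis rises. Averages near 0 changed sign: leaving out single arrays gave −0.0652 to 0.0247 for Ctla4, −0.0681 to 0.0102 for Mki67 and −0.0335 to 0.00948 for Il7r. Repeated quantile normalization gave 0.00852 for Ctla4, and array weights 0.0161 for Il7r.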

Other observations

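MicroRNA genes were passed over by the naming rule and are described here after their values were seen. Of 483 microRNA genes tested, 6 were called (1.24%, against 3.71% of all genes), 4 higher and 2 lower. Mir1949 rose by 1.30 and was common to both populations (1.08 in nTregs and 1.53 in CD4 cells). Mir17 and Mir20a, neighbours in a cluster on chromosome 14 that is known to promote lymphocyte growth, rose by 0.55 and 1.01 without being common. Mir20a differed by 1.44 in nTregs and 0.57 in CD4 cells. Their mature 5p forms are shown since they share a seed (bases 2 to 8, in capitals), per RefSeq on GRCm38.p6.
mmu-miR-17-5p: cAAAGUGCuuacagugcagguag
mmu-miR-20a-5p: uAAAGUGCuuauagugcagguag
Their calls were lost without 8 and 10 of the 12 arrays. Mir3097 rose by 0.85, with 0.10 in nTregs and 1.59 in CD4 cells, and was not common. The additive fit did not call it (adjusted p = 0.0803). Mir128-2 fell by 0.68 and Mir9-1 by 0.35 on the log2 scale, both in the common response. The calls were lost without 3 arrays for Mir128-2, 7 for Mir9-1 and 0 for Mir3097. The array reads RNA of the gene's locus, and whether the mature forms changed was not tested.

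Calls were not spread evenly over signal. With genes ranked by mean level into 4 classes of 5545, the dimmest class held 0.433% called, the next 1.08%, then 5.70% and the brightest 7.61%. The lists differed in level, so 3.71% is not a fitting yardstick for each of them. The median level was 8.76 for the DNA repair list and 9.15 for the DNA methylation machinery, against 6.96 for all genes and 5.90 for the germline list. The shares called of DNA repair genes (6.06%) and of the methylation machinery (5.56%) were below that of the brightest class.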
